A study of Homo sapiens with 2 samples.

Results

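Mitosis and G2/M genes are the genes whose products take a cell from the end of DNA replication through division. The set examined here holds 52 of them, chosen as a named list, and every probe whose gene symbol in the deposited table of normalized values is one of these names was taken, which gave 66 of 58199 probes on the array. Of the 66, 63 probes of 51 genes were well above background on at least 1 array, out of 25345 such probes in all, and 61 of the 63 were so on both arrays. The probe of KIF18A, a kinesin that dampens chromosome movement, was not well above background on either array, so that no fold can be given for this gene.

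A cell enters mitosis when CDK1, bound to a B-type cyclin, is freed from its inhibitory phosphates by CDC25 phosphatases. Aurora and Polo-like kinases then build the spindle, condensin and topoisomerase II shape the chromosomes, the kinetochore binds them to microtubules, and the spindle checkpoint holds back the anaphase-promoting complex until every chromosome is attached. Most of these genes are transcribed late in the cell cycle, through promoter elements that the MuvB complex, with B-MYB and FOXM1, and the factor NF-Y bind, so their mRNA levels move with the share of cells in G2 and mitosis.

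The RNA came from A375, an established human melanoma cell line. In 1 culture the cells carried an siRNA against THOC2 (si-THOC2), a subunit of the THO complex that couples transcription to mRNA export, and in the other a control siRNA (NC). The labels place both harvests at 48 h, and neither culture was given any other treatment in the labels. Each RNA was measured on 1 one-colour Agilent SurePrint G3 Human v3 array, and both arrays lay on 1 slide. With 1 array per condition, differences from culture to culture could not be measured and the conditions could not be tested, so each value compares these arrays only. A whole culture was measured, so fewer cells in G2 and mitosis and less RNA per cell cannot be told apart.

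The labels conflict: in each sample the source field gives the opposite condition to the title and the description. The titles and descriptions were followed. By that reading THOC2 itself was lower with si-THOC2 at both of its probes. The probe at chromosome X from 122734486 to 122734545 (hg19) read 136 with NC and 40.9 with si-THOC2, which gives a log2 fold change of -1.42. The other, from 122747960 to 122748019, had 67.3 and 35.1, a log2 fold change of -0.63. Signals are processed intensities on a linear scale. A log2 fold change is si-THOC2 minus NC after each array's 75th percentile (6.62 with NC and 6.31 with si-THOC2, on the log2 scale) was subtracted, which raises every si-THOC2 value by 0.31 relative to NC. Of the melanocyte markers, SOX10, MITF, MIA, S100A1, S100B and DCT were measured on both arrays, MLANA was measured on the si-THOC2 array only, and PMEL and TYR were not well above background. EPCAM, CDH1, COL1A1, COL1A2 and COL3A1, markers of other cell types, were not well above background on either array, while KRT8, KRT18, DCN, PTPRC, CD3E, CD14, PECAM1 and VWF were on at least 1.

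Promoters are shown for 9 genes because they hold the elements for which mitotic genes are known, and because they run from the member with the highest log2 fold change to SMC4, the lowest among members measured on both arrays. Each line gives the 100 bases before an annotated gene start, from RefSeq (GRCh38.p14), written 5′ to 3′ in the direction of the gene. Capitals mark the cell cycle genes homology region (CHR, searched as TTTGAA or TTCGAA) and the CCAAT box that NF-Y binds, on either strand, so that TTCAAA and ATTGG are the same elements read from the other strand.
INCENP (chr11:62123911-62124010, plus strand): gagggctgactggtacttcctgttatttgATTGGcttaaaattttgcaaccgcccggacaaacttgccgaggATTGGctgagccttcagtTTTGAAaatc
KIF4A (chrX:70290004-70290103, plus strand): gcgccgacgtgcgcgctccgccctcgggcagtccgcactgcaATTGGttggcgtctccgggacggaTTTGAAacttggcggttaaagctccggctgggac
PLK1 (chr16:23678789-23678888, plus strand): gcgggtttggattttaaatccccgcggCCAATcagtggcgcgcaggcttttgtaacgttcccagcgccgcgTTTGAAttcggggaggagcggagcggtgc
CDC20 (chr1:43358881-43358980, plus strand): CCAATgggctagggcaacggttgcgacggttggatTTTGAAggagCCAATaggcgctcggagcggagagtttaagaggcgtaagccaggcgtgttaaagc
CCNB2 (chr15:59105046-59105145, plus strand): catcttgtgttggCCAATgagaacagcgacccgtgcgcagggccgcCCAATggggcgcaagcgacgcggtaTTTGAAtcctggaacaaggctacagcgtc
CCNB1 (chr5:69167050-69167149, plus strand): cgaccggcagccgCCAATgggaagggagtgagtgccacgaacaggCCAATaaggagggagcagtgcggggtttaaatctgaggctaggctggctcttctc
KIF11 (chr10:92593030-92593129, plus strand): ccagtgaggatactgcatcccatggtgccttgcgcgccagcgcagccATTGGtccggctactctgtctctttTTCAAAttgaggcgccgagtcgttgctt
ASPM (chr1:197146670-197146769, minus strand): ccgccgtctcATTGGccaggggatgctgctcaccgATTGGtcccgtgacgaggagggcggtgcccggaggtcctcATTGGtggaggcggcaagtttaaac
SMC4 (chr3:160399550-160399649, plus strand): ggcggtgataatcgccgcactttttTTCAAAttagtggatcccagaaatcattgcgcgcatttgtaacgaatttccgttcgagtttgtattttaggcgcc

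The promoter table held 57 windows of 300 bases (250 before and 50 after a start) for 45 of the 52 members. BUB3, AURKA, FOXM1, UBE2C, BIRC5, TTK and TPX2 had none in it. A CHR was present in 37 of the 57 windows (64.9%), against 16.4% of all 35116 windows in the table. CCAAT was present in 39 (68.4%), against 34.6% of all windows. The spellings TTTGGCGC, TTTCGCGC, TTTCCCGC and TTTGCCGC, which E2F factors bind, were in 4 windows (7.02%, against 3.31%). Of the 45 genes, 27 held both a CHR and a CCAAT box in a window and 4 held neither. In the lines above, the CHR of INCENP, KIF4A, PLK1, CCNB2 and KIF11 lies between the CCAAT box and the start, while the lines of CCNB1 and ASPM hold CCAAT boxes alone and that of SMC4 a CHR alone. A match is a stretch of letters and does not show that a factor binds there.

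These elements were then set beside the log2 fold changes. The 33 compared members with a CHR had a median log2 fold change of 0.03 and the 11 without one a median of 0.01. Only this split by CHR was planned, and a split by CCAAT box was added to it. The medians with and without a CCAAT box lay further apart. With a CCAAT box the median was 0.10 and 11 of 33 genes were below 0, and without one the median was -0.24 and 7 of 11 were below 0. The members without a CCAAT box in their windows were SMC4, ANLN, NUF2, SMC2, CENPE, NCAPG, NDC80, CKAP2, KIF2C, BUB1B and MYBL2, from -0.55 (SMC4) to 0.47 (MYBL2). Among all genes with a window and a compared probe, the medians with and without CCAAT were 0.03 (4562 genes) and 0.02 (6108 genes). Of these, 45.5% and 46.3% were below 0, so the array as a whole showed no such gap. The split among members was seen in these arrays and was not tested.

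**Figure D1:**
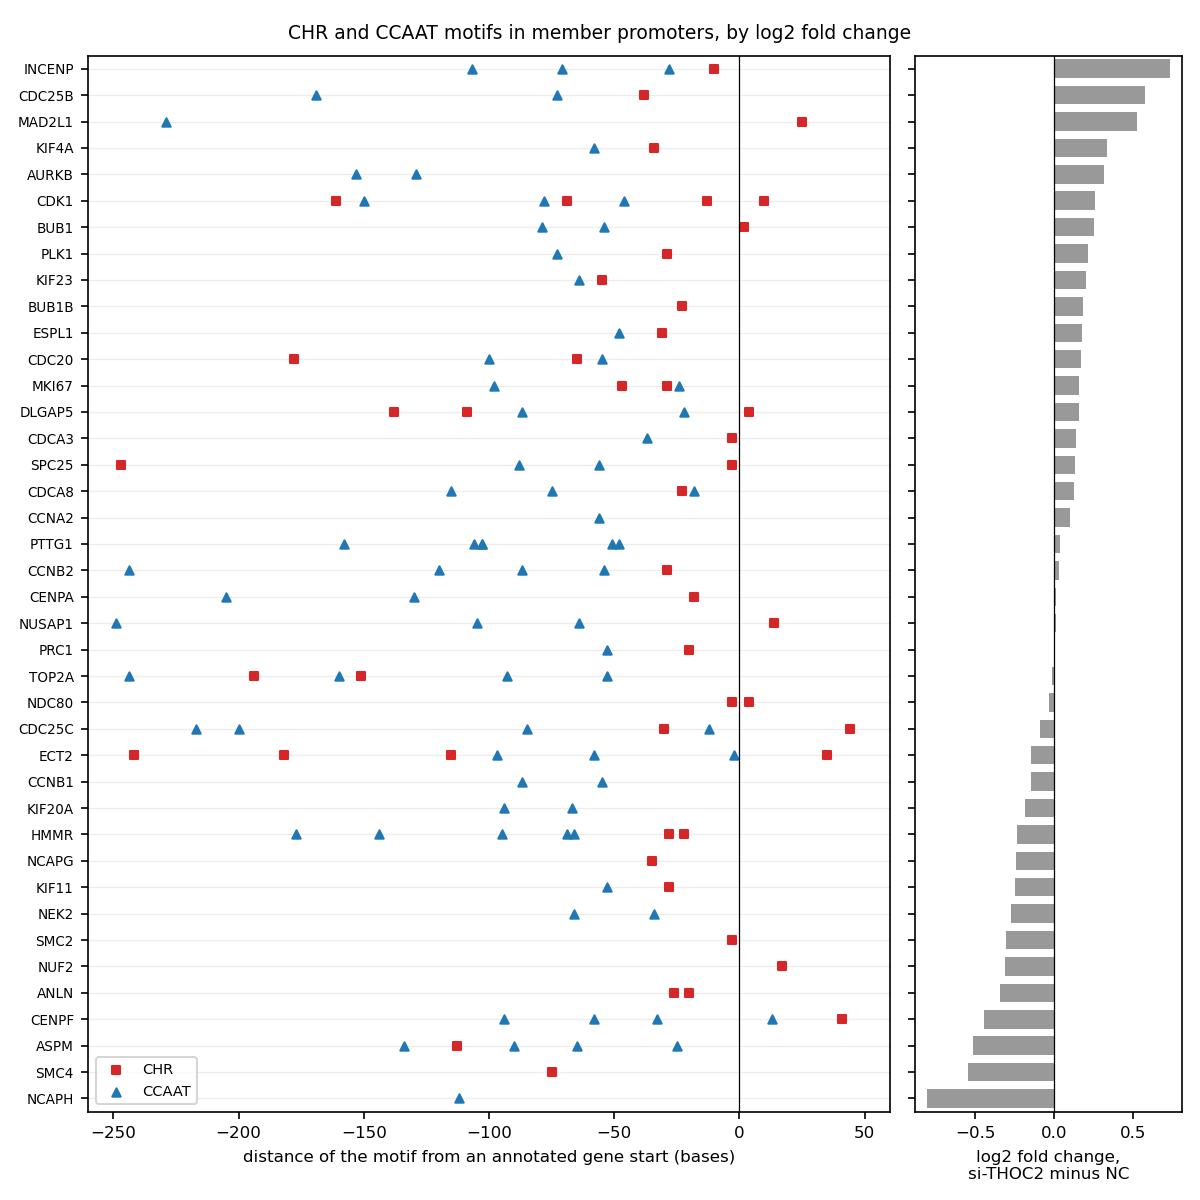
CHR (red squares) and CCAAT (blue triangles) motifs by distance in bases from an annotated gene start, for the 40 compared members with either motif, all annotated starts of a gene on 1 row, with the log2 fold change of the gene (si-THOC2 minus NC) as bars at the right. Rows run from INCENP (0.73) to NCAPH (-0.80, not well above background on the si-THOC2 array), and 4 of the 8 rows under KIF11 (SMC2, NUF2, ANLN and SMC4) carry no triangle.

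At the 2-fold threshold named in the methods, 0 of the 63 member probes were lower and 0 were higher, where 3.33% of all compared probes were lower and 2.93% higher. At 1.5-fold, 3 were lower (4.76%, against 7.69% of all) and 1 was higher (1.59%, against 6.14%). At a smaller fold, a log2 change past 0.32 either way, 11 were lower (17.5%, against 15.8%) and 6 were higher (9.52%, against 14.8%). Probes near background scatter widely, so the 40 member probes that exceeded 7 in log2 signal on each array (bright probes) were also set beside the 12373 probes of that kind. Of these 40, 5 were lower and 5 higher past 0.32 (12.5% each), against 5.18% and 8.7% of bright probes in all. At 1.5-fold it was 1 and 1 (2.5% each), against 0.97% and 1.22%, and at 2-fold 0 and 0, against 0.145% and 0.202%. The 51 genes had a median of 0.03, with 20 below 0 (39.2%) and 31 above. All 17514 compared genes had a median of 0.02, with 46.6% below 0. The 20 include NCAPH, for which no fold can be given, and with other processing up to 28 of the 51 were below 0. Among genes with a bright probe, 9 of 37 members (median 0.11) and 38.9% of all 9649 (median 0.05) were below 0. The SD over genes was 0.31 for the members and 0.64 for all compared genes, and with a bright probe it was 0.28 and 0.23. Over all compared genes the medians thus lay close together, while the bright members had a smaller share of genes below 0 than bright genes in all. Their share of probes past 0.32 was larger in both directions, but it rests on 5 probes each way. Of the 5 lower ones, 2 are probes of SMC4. These differences were not tested.

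**Figure D2:**
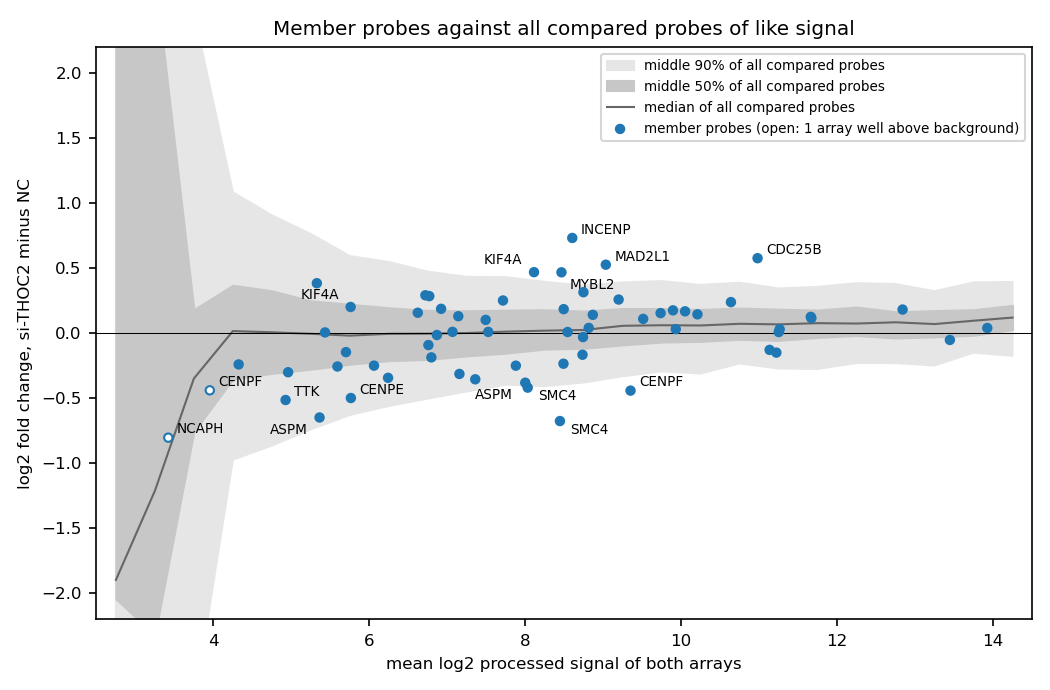
Log2 fold change (si-THOC2 minus NC) of the 63 member probes against the mean log2 processed signal of both arrays, with open points for 2 probes well above background on 1 array. Grey bands hold the middle 50% and the middle 90% of all compared probes of like signal; INCENP, CDC25B, MAD2L1, MYBL2 and the brighter KIF4A probe lie above the outer band and both SMC4 probes and the brighter CENPF probe below it, while NCAPH lies in the region near background where the bands are widest.

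The technical error comes from probes printed on repeated spots. The SD of a spot's log2 fold change was 0.05 for log2 signals over 8, 0.10 between 6 and 8, 0.17 between 4 and 6, and 0.42 under 4 (medians over 244, 36, 5 and 15 probes). It leaves out the differences between cultures. It also leaves out what all spots of a probe on an array share, such as labelling, hybridization and the probe's sequence. The SD over all genes with a bright probe was 0.23, larger than the technical SD at such signals. AURKA, BUB3, CCNB2, CENPA, CKAP2, NUSAP1, PRC1, PTTG1 and TOP2A lay so near 0 that their side of it changed with the scaling or the other alternatives, and no direction is given for them. Of the 63 member probes 7 (11.1%) gave a higher signal with si-THOC2 already before scaling, against 15.5% of all compared probes.

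The cyclins and the regulators of CDK1 lay within 0.26 of 0, apart from one phosphatase. CCNB1, the cyclin that starts mitosis, had 2618 with NC and 1931 with si-THOC2 at 1 probe and 502 and 361 at the other, log2 fold changes of -0.13 and -0.17, so both probes were slightly lower. CDK1 had 598 and 577, a log2 fold change of 0.26. Its other probe was not well above background on either array. CDC25B, the phosphatase that first activates CDK1 at the centrosome, had 1842 and 2215, a log2 fold change of 0.58 (1.49-fold, technical SD 0.05), at chromosome 20 from 3786178 to 3786237. This was the highest value of the group and lay above 98.8% of all genes with a bright probe. Its relative CDC25C had 124 and 94.2, a log2 fold change of -0.09. CCNB2, CCNA2 and CDCA3, which promotes the degradation of the CDK1 inhibitor WEE1, lay from 0.03 to 0.14.

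**Figure D3:**
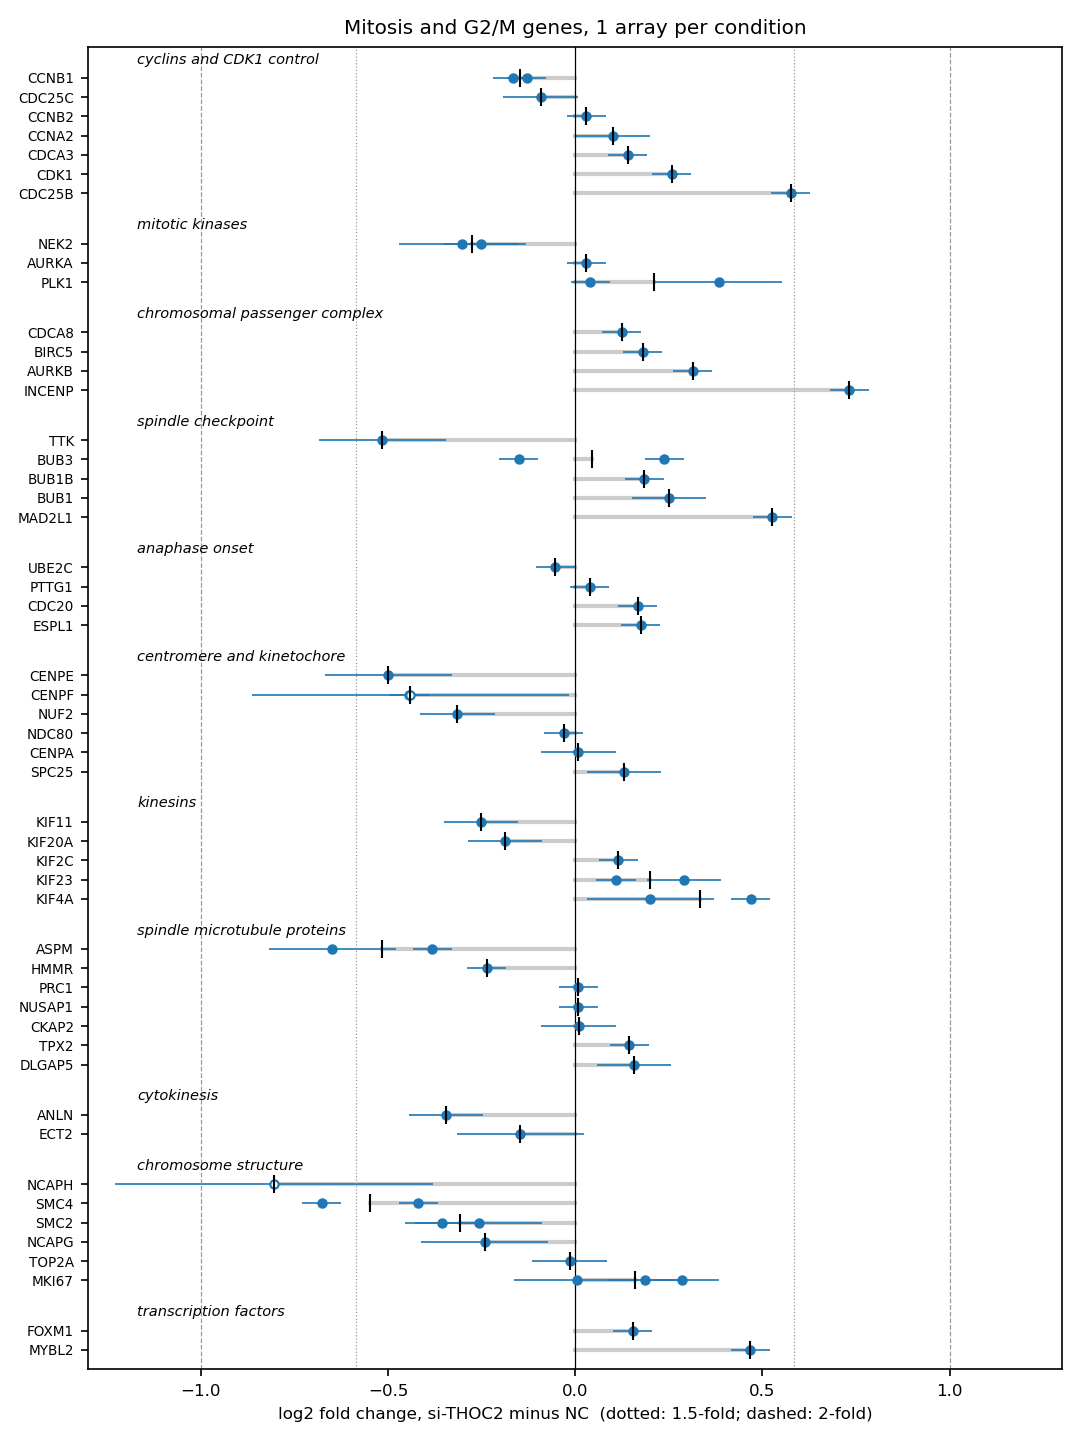
Log2 fold change (si-THOC2 minus NC) of the 51 compared members by role, with points for probes, black ticks for gene means and bars of 1 technical SD of a spot at that signal. Open points mark probes well above background on 1 array. All 4 chromosomal passenger genes lie right of 0, as do most genes with a bright probe, and CDCA8 lies left of it when blocks are centred. Among the chromosome structure genes, SMC4 and SMC2 lie left of 0, as they did in all alternatives, while NCAPH has no fold and NCAPG and TOP2A changed sides.

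Among the mitotic kinases, AURKA, which matures the centrosomes, had 1076 with NC and 886 with si-THOC2, which gives a log2 fold change of 0.03. PLK1, which acts from mitotic entry to cytokinesis, had 494 and 410 at its brighter probe (0.04) and 39.1 and 41.2 at its dimmer one (0.38, technical SD 0.17). NEK2, which parts the centrosomes, was lower at both probes, with 81.0 and 55.0 (-0.25) and 38.4 and 25.2 (-0.30).

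The chromosomal passenger complex corrects wrong attachments of chromosomes, and all 4 of its genes were above 0, with a median of 0.25, although CDCA8 changed sides when blocks of the array were centred. All genes with a bright probe had a median of 0.05, with 38.9% below 0. CDCA8 and BIRC5 lay above 64.4% and 74.9% of them. INCENP, the scaffold that holds the complex together and activates its kinase, had the highest log2 fold change of all members, 0.73 (1.66-fold), and lay above 99.5% of all genes with a bright probe. Its probe, at chromosome 11 from 61919742 to 61919801, was printed on 10 spots. These gave 306 to 362 (median 342) with NC and 431 to 479 (median 447) with si-THOC2, before any scaling, so the spots of the arrays did not overlap. The log2 fold change was above 0 at 10 of 10 spots and ran from 0.64 to 0.82 (SD 0.07). With normexp the value was 0.56, under 1.5-fold. AURKB, the kinase of the complex, had 429 and 430.2, a log2 fold change of 0.31. BIRC5 (survivin) was at 0.18 with an SD of 0.07 over 9 spots. CDCA8 (borealin) had 3457 and 3041, a log2 fold change of 0.12, and its probe lay in a block of spots where 14.4% of the probes were higher by 2-fold. When each block was centred on its own median, CDCA8 was at -0.06, so its side of 0 depends on its place on the array. The blocks are a grid of 16 down and 8 across.

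**Figure D4:**
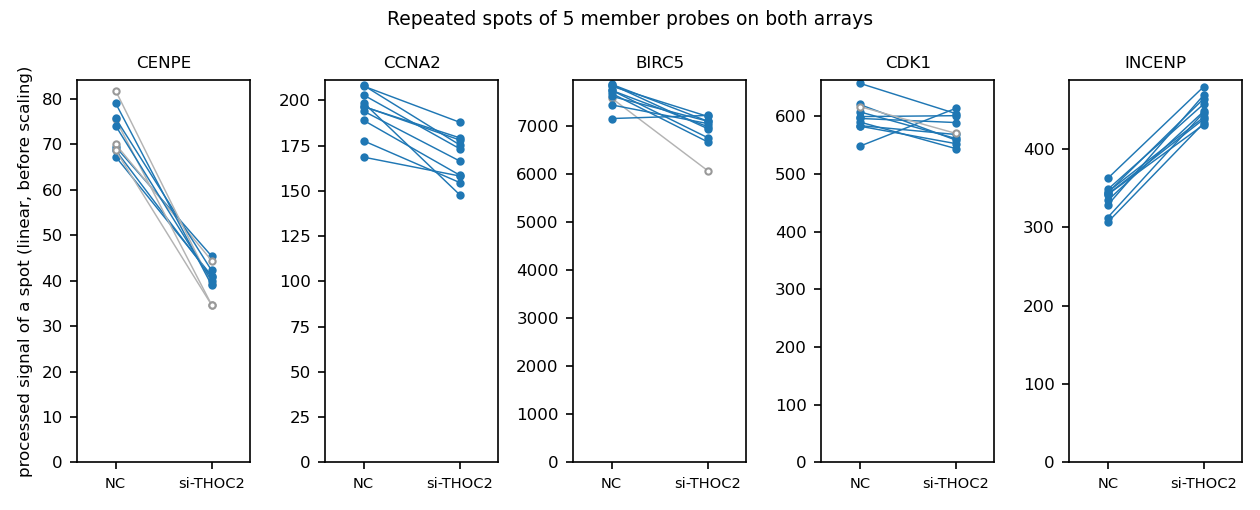
Processed signal (linear, before scaling, axes from 0) of the repeated spots of 5 member probes, 10 spots each, on the NC and si-THOC2 arrays, with a line for each spot. Grey open points are spots left out for an outlier mark on an array. INCENP is higher with si-THOC2 at every spot and CENPE is lower at every spot, and in proportion to their signal the other 3 differ by less.

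The spindle checkpoint genes lay on both sides. MAD2L1, which forms the inhibitor of CDC20 at unattached kinetochores, had 486 with NC and 565 with si-THOC2, which gives a log2 fold change of 0.53 (1.44-fold, technical SD 0.05). TTK, the kinase that recruits the checkpoint proteins, had 40.5 and 22.9, a log2 fold change of -0.51 (technical SD 0.17). Its probe lay in a block with 12.4% higher and 1.55% lower calls at 2-fold, and with normexp background correction, which lifts dim signals, TTK was at -0.03. BUB1, its kinase partner at the kinetochore, was at 0.25, and BUB1B (BubR1), part of the checkpoint inhibitor, at 0.18. The probes of BUB3 disagreed in sign, with 2800.0 and 2035 (-0.15) at one and 1634 and 1555 (0.24) at the other, each by more than the technical SD of 0.05.

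The genes that start anaphase differed little between the arrays. CDC20, the activator of the anaphase-promoting complex, had 1114 with NC and 1009 with si-THOC2, which gives a log2 fold change of 0.17. ESPL1 (separase), which cuts cohesin, had 998 and 909, a log2 fold change of 0.17. UBE2C, the ubiquitin-conjugating enzyme of the complex, had 12660 and 9846, a log2 fold change of -0.05. PTTG1 (securin), which holds separase inactive, was at 0.04.

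Of the centromere and kinetochore genes, those of the large outer proteins were lowest. CENPE, a kinetochore kinesin that brings chromosomes to the middle of the spindle, had 71.9 with NC and 41.0 with si-THOC2, which gives a log2 fold change of -0.50. Of its 10 spots 6 were used, and they gave 67.3 to 79.0 with NC and 39.0 to 45.4 with si-THOC2, with no overlap and an SD of 0.14, and with normexp the value was -0.21. CENPF had 847 and 503 at its brighter probe, a log2 fold change of -0.44 (technical SD 0.05). Its other probe had 20.1 with NC and 12.0 with si-THOC2, where it was not well above background, and with the dim side at its limit its log2 fold change was -0.03. NUF2 and NDC80, partners in the complex that grips microtubules, were at -0.31 and -0.03, and SPC25 of the same complex was at 0.13, the highest of the group (150.3 and 133). CENPA, the centromeric histone, was at 0.01.

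Among the kinesins, KIF4A, which acts on the chromosome arms and the midzone, was highest, with 262 and 292 at 1 probe (0.47) and 56.3 and 52.2 at the other (0.20). KIF11, the motor that pushes the spindle poles apart, was lowest, with 286 and 194, a log2 fold change of -0.25 (technical SD 0.10). KIF20A, a motor of cytokinesis, was at -0.19, KIF2C, which shortens microtubules, at 0.11, and KIF23, a midzone motor, at 0.20 over its 2 probes. The probe of KIF18A had 12.9 with NC and 3.25 with si-THOC2, neither well above background.

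Of the proteins of the spindle microtubules, ASPM stood apart. It focuses the spindle poles, and its probes at chromosome 1 had 326 with NC and 202 with si-THOC2 (197053454 to 197053513, -0.38, technical SD 0.05) and 57.4 and 29.5 (197057399 to 197057458, -0.65, technical SD 0.17). Both probes were lower, the second by more than 1.5-fold, in blocks with 2.63% and 2.36% lower calls at 2-fold. The mean of both was -0.52, and -0.25 with normexp. HMMR, a microtubule-binding protein of the poles, was at -0.24. DLGAP5, which stabilizes kinetochore microtubules, had 104 and 93.4, the highest of the group at 0.16, in a block with 10.1% higher calls. TPX2, the activator of AURKA, was at 0.14. With blocks centred DLGAP5 was at 0.03, below TPX2 at 0.12. PRC1, which bundles the midzone, NUSAP1 and CKAP2 were within 0.01 of 0. The other CKAP2 probe was not well above background on either array.

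Both genes grouped under cytokinesis were below 0, where 46.6% of all compared genes were. Grouped with the kinesins, KIF20A, a motor of cytokinesis, was at -0.19, and KIF23, a midzone motor, at 0.20. ANLN (anillin), which organizes the cleavage furrow, had 94.9 with NC and 60.3 with si-THOC2, which gives a log2 fold change of -0.34 (technical SD 0.10), and -0.14 with normexp. ECT2, which activates RhoA there, had 60.9 and 44.4, a log2 fold change of -0.15 (technical SD 0.17).

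Of the chromosome structure genes with a fold, SMC4 and SMC2 of condensin had the lowest values. The median of the group, -0.27, counts NCAPH, for which no fold can be given. SMC4, one of the ATPase arms shared by both condensins, had 491 with NC and 248 with si-THOC2 at chromosome 3 from 160132206 to 160132265 (-0.68 in log2 fold change, technical SD 0.05). At its other probe, from 160151581 to 160151640, it had 337 and 203, a log2 fold change of -0.42. The second ATPase arm, SMC2, was lower at both probes too, with 207 and 130.4 (-0.36) and 58.7 and 39.6 (-0.26). Thus 4 of 4 probes of the ATPase pair were below 0, where 46.6% of all compared genes were. The SMC4 probes lay in blocks with 3.87% and 1.47% lower calls at 2-fold.

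The other condensin I members were dim. NCAPG had 24.3 and 16.6, a log2 fold change of -0.24 (technical SD 0.17), which normexp moved to 0.0022. NCAPH had 15.8 with NC and 7.29 with si-THOC2, which is not well above background, and as signals on that array counted as well above background from 15.9 upwards, no fold can be given. Its value of -0.80 with the dim signal as measured is 1 of the 3 lower by 1.5-fold. Chosen after their values were seen, the non-SMC subunits outside the set were not lower, with NCAPD2 at 0.16 and 0.20, NCAPD3 at 0.40, NCAPG2 at 0.02 and NCAPH2 from 0.15 to 0.36 over 3 probes, while SMC3, an ATPase arm of cohesin, had 384 and 218, a log2 fold change of -0.50. The probes of its partner arm SMC1A went both ways, at 0.09, 0.31 and -0.48. TOP2A (topoisomerase II alpha) had 131 and 104, a log2 fold change of -0.02. MKI67, the proliferation marker that coats mitotic chromosomes, was at 0.00, 0.28 and 0.19 over 3 probes, the highest gene of the group, with signals of 48.0 and 38.9, 110.1 and 108, and 127 and 116.

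The transcription factors that drive these genes were both above 0, in all alternatives as well. MYBL2 (B-MYB) had 335 with NC and 373 with si-THOC2, which gives a log2 fold change of 0.47 (1.38-fold, technical SD 0.05). FOXM1 had 901 and 808, a log2 fold change of 0.15, and 0.06 with normexp. MYBL2 and FOXM1 lay above 97.5% and 70.1% of all genes with a bright probe, of which 38.9% were below 0.

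The members were then set beside lists of related genes. A list of 81 other mitotic genes had 79 compared genes, with a median log2 fold change of 0.08. Of the 79, 26 (32.9%) were below 0, against 46.6% of all compared genes. Of their 105 probes, 11 (10.5%) were lower and 13 (12.4%) higher past 0.32, against 15.8% and 14.8% of all compared probes. Of the 70 bright ones among them, 1 (1.43%) was lower and 9 (12.9%) were higher, against 5.18% and 8.7% of all bright probes. At 1.5-fold and on both arrays, CCNF, the F-box protein cyclin F, was highest with 20.2 and 35.3 (1.12). It lay in a block with 17.5% higher calls and was at 0.93 with blocks centred. LIN9, a MuvB subunit, had 0.60 at 1 probe, in a block with 14.4% higher calls, and -0.04 at the other. With blocks centred the higher LIN9 probe was at 0.42, under 1.5-fold.

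The genes of G1/S lay higher. Of 42 listed genes for DNA replication and its start 40 were compared, with a median of 0.37, 0.34 above that of the members. Of the 40, 38 (95%) were above 0, against 53.4% of all compared genes. Of their 47 probes, 29 (61.7%) were higher and 0 lower past 0.32, against 14.8% and 15.8% of all compared probes. ORC1 of the origin recognition complex had 42.0 and 64.7 (0.93), RFC3 of the clamp loader had 0.79 at its higher probe (0.60 with blocks centred, in a block with 17.5% higher calls) and 0.32 at its other, and UHRF1, which maintains DNA methylation, had 0.79 and 0.46. Members above 0.5, INCENP, CDC25B and MAD2L1, lay above the middle 50% of that list, which ran from 0.27 to 0.47. As scaled here, 20 of 51 members (39.2%), NCAPH among them, and 2 of 40 G1/S genes (5%) were below 0. The difference between the lists is a description of these arrays, without a test, and the lists were chosen with earlier results of these data known. Of 8 genes named as inhibitors of cyclin-dependent kinases 7 were compared, with a median of -0.12. Of the 7, 5 (71.4%) were below 0, against 46.6% of all compared genes. The lowest was CDKN1B (p27), named after its values were seen, with 201 and 120, and 596 and 322 (-0.44 and -0.58). The 2 above 0 were CDKN1A and CDKN2D, at 0.04 and 0.03, and CDKN2A lay near 0, at -0.05 and -0.08.

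**Figure D5:**
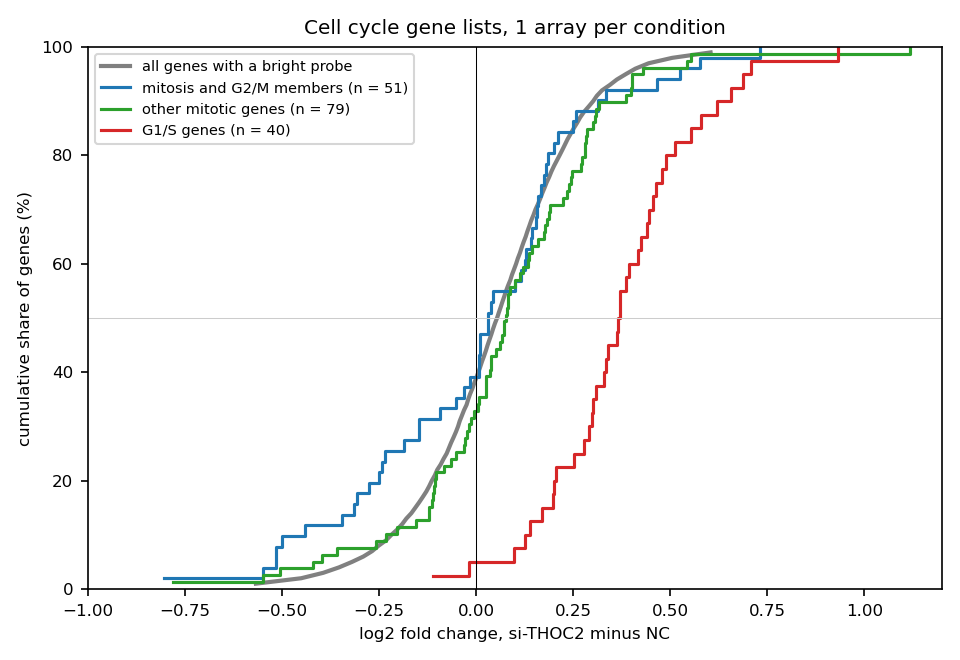
Cumulative share of genes (%) by log2 fold change (si-THOC2 minus NC) for the 51 members (blue), 79 other mitotic genes (green), 40 G1/S genes (red) and all 9649 genes with a bright probe (grey, 1st to 99th percentile). The blue line, which includes members with no bright probe, crosses 50% at 0.03, and the red line crosses it at 0.37.

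Base composition moved with the values. The 13 member probes with a GC content of up to 35% had a median log2 fold change of -0.15, with 9 below 0, and the 26 probes over 40% and up to 45% had a median of 0.12, with 8 below 0. All compared probes went the same way by less, from -0.05 to 0.04 over the same classes, and bright probes went from 0.00 to 0.07. Among all compared probes 2800 of 4840 in the first class and 3837 of 8589 in the second were below 0. INCENP was at 0.73 with a probe of 35% GC, and CENPE at -0.50 with one of 45%. The part of base composition in the members' values was not tested.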

How the data were processed

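RNA of A375 cells, 1 culture per condition, was hybridized to 1 Agilent one-colour array each. The authors deposited the scanner output of Feature Extraction 10.7.1.1, per the submitters' processing notes, with an intensity for each of 62976 spots per array after background subtraction (processed signal). A deposited table of log2 values that the authors normalized served as an alternative, and their deposited comparison table, with fold changes and a score, was not used. Their 2-fold threshold was kept. Their Student's test needs replicates, so it was left out.

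Control spots and spots marked as outliers (230 with NC, 253 with si-THOC2) were left out, and no spot was saturated (0 on each array). Log2 signals of a probe's spots were averaged, and each array's 75th percentile over 58199 probes was subtracted. Probes were compared where at least 0.5 of the spots were well above background on 1 array or more: 24616 (42.3%) with NC and 22936 (39.4%) with si-THOC2, 22207 on both. Gene values are means over compared probes. A dim signal is bounded by the lowest signal well above background (14.7 with NC, 15.9 with si-THOC2). The number of arrays limits the precision.

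Probe positions are those of the deposited annotation (hg19), and exons and UTRs were not analysed here. Promoters came from RefSeq. Symbols of 3 listed genes were matched through older names. Genes given in full were the main regulators, the highest and lowest of each role, and members past 1.5-fold, not well above background or with discordant probes. The members and lists were chosen with earlier results of these data known. The 2-fold call was tried on simulated data, with bright probes changed past that fold and noise of the size of the technical SD. The smaller folds were not tried in this way. Alternatives covered scaling, background, detection, dim signals, place on the array, probe choice and GC content. Python 3.11.15 (numpy 2.4.6, pandas 2.3.3, statsmodels 0.14.6, matplotlib 3.10.9) and R 4.3.3 with limma 3.58.1 were used.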

Additional observations from a re-analysis of the deposited data

How the results depend on the processing

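No paired analysis was possible because each condition has only 1 array. Centring by GC content of the probes was chosen after seeing the data. Of 66 counts of member probes over the thresholds and alternatives, 61 stayed within 1.5 times of the count reported. The exceptions were 1 probe lower at 2-fold with no detection filter (KIF18A, dim on both arrays) and, with normexp background correction, 1 lower and 0 higher at 1.5-fold and 5 lower and 3 higher past 0.32 (log2). Some of the 61 could not have differed. With no member probe past 2-fold, the counts at a fold of 3, for genes and for probes on both arrays only had to be 0 too. The cause of the changes with normexp was not tested. The members' median ran from -0.0288 (75th percentile of probes on both arrays) to 0.06, and its distance to the median of all genes was at most 0.06, apart from -0.21 with no detection filter, where all genes were at 0.24. With normexp, other mitotic genes were at -0.0015, G1/S genes at 0.23, and THOC2 at -0.51. The G1/S median stayed 0.24 to 0.34 above that of the members. In all 11 alternatives 17 members were below and 22 above 0, and 12 changed sign or reached 0 in at least 1. The members below 0 numbered 20 as reported, 26 with normexp or the authors' values, and 28 with the 75th percentile of probes on both arrays. CDCA8 was at -0.0561 with centring by block and NCAPG at 0.0022 with normexp. NCAPH was at 0.0000 with dim signals at their limit, where it has no fold. Signals near background limit NCAPH, NCAPG, TTK and the dimmer CENPF and ASPM probes.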
